A study of Mus musculus with 10 samples.

Results

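Malat1, Neat1 and 6 long noncoding RNAs that host small nucleolar RNAs (Gas5, Snhg1, Snhg3, Snhg5, Snhg8 and Snhg12) were followed in effector memory (EM) γδ T cells. The rows were found by matching the Entrez ID of each gene to its mouse symbol, which gave 8 genes of the 27179 counted. All 8 passed the filter on low counts and were among the 12655 genes tested. The cells, defined by flow cytometry as CD3+ γδTCR+ with CD44 and without CD62L, came from the spleen and were sequenced directly, without stimulation in vitro. The pre-exposed mice were female C57BL/6 mice aged 6 to 8 weeks at infection, given 50000 red blood cells infected with *Plasmodium chabaudi*, a rodent malaria parasite. The naïve mice were female C57BL/6 mice of the same age range that received no parasites. Both groups received chloroquine and pyrimethamine from day 14, or at the matching time in naïve mice, and spleens were taken 12 weeks after the treatment ended. There were 5 libraries from pre-exposed mice and 5 from naïve mice, and how closely the mice of a group shared housing or processing is not given, so that p-values measure the spread between these libraries.

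Malat1 and Neat1 are long noncoding RNAs that stay in the nucleus, Malat1 in nuclear speckles and Neat1 in paraspeckles, for which it forms the scaffold. Small nucleolar RNAs (snoRNAs) guide chemical modification and processing of other RNAs, mostly ribosomal RNA, and in mammals most are cut from introns. Hosts of this kind are transcribed and spliced, their introns release snoRNAs, and the joined exons are exported. The spliced RNAs of hosts such as Gas5 and Snhg1 are known to be short-lived because they are translated over short reading frames and removed by nonsense-mediated decay, and both belong to the class of transcripts that begin with a pyrimidine tract, as ribosomal protein mRNAs do.

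The counts of each gene cover its annotated exons and lie in these places of the mouse genome (GRCm38, RefSeq spans). Malat1 (Entrez 72289) is at chr19:5795690-5802672 and was counted over 6982 bases. Neat1 (66961) is at chr19:5824708-5845480, a span of 20773 bases of which 3177 were counted. The Neat1 levels below describe those bases only, and RNA from the rest of the span was not counted. Gas5 (14455) is at chr1:161034601-161038539, with 2554 counted bases. It overlaps the protein-coding gene Zbtb37. Snhg1 (83673) is at chr19:8723487-8726326 with 476 counted bases, and Snhg3 (399101) at chr4:132351933-132353686 with 437. Snhg5 (72655) is at chr9:88521052-88522897 with 1011 counted bases, and Snhg12 (100039864) at chr4:132308678-132311024 with 606. Snhg8 (69895) is at chr3:123507552-123508336 and was counted over its whole span of 785 bases, which holds the snoRNA gene Snora24. Its counts therefore leave out no intron. The annotation places 8 snoRNA genes in the span of Gas5, 8 in that of Snhg1, 4 in that of Snhg12, 2 each in those of Snhg3 and Snhg5 and 1 in that of Snhg8. Whether the counting used strand is not given in the sources used here. Reads shared with these overlapping genes could not be told apart.

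The 3′ end of Malat1 is shown because it differs from that of the other members: the RNA is cleaved behind an A-rich tract that the genome encodes, the tract folds with U-rich stretches upstream into a triple helix, and the piece cut off becomes the small cytoplasmic mascRNA. The stretch below (GENCODE vM21 transcript Malat1-201, positions 6606 to 6749, minus strand of chr19:5795924-5796067) runs from the first U-rich stretch to the end of mascRNA. The capitals mark the 18 bases of the A-rich tract, positions 6674 to 6691, directly ahead of the 58 bases of mascRNA.
Malat1 3′ end: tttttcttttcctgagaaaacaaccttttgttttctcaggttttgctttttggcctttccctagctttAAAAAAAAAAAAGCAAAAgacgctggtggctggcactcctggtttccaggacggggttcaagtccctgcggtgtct

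The starts of the 6 hosts are shown because a pyrimidine tract at the start is the sequence feature this class of RNA is known for. Each window (RefSeq, GRCm38.p6, transcribed strand) holds the 20 bases before and the 30 bases from the annotated start, and the capitals mark the longest run of C or T that comes within 10 bases of that start. Gas5 has windows for 2 annotated starts.
Gas5, upstream start, chr1:161034581-161034630, plus strand: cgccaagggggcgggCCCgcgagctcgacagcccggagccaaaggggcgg
Gas5, downstream start, chr1:161035146-161035195, plus strand: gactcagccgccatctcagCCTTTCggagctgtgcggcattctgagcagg
Snhg1, chr19:8723467-8723516, plus strand: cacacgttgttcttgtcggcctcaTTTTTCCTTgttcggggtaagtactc
Snhg3, chr4:132353657-132353706, minus strand: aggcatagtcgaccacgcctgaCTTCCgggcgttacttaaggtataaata
Snhg5, chr9:88522868-88522917, minus strand: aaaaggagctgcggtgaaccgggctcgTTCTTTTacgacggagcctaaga
Snhg8, chr3:123508307-123508356, minus strand: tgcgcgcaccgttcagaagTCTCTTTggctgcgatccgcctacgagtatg
Snhg12, chr4:132308658-132308707, plus strand: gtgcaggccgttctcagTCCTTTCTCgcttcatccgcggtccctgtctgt
The longest runs were 9 bases in Snhg1 and Snhg12, 7 in Snhg5 and Snhg8, 6 at the downstream start of Gas5, 5 in Snhg3 and 4 at the start of Malat1. A run of at least 8 bases was found in 2 of the 7 members with a window and in 13.7% of all 32851 windows. With a minimum of 6 bases these were 5 of 7 members and 29.2% of windows. A run is a description of these letters and no measure of where transcription began in these cells.

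Several properties of the libraries bear on the members. Total counts ranged from 8747888 to 22542832 in pre-exposed mice and from 6587199 to 19993444 in naïve mice. An index pair is part of the label description of pre-exposed mice 1 and 5 and of all naïve mice but not of pre-exposed mice 2 to 4, and since no naïve library lacks it, this difference and the exposure cannot be told apart in mice 2 to 4. In these 3 libraries the 13 mitochondrially encoded mRNAs took 0.789% to 1.79% of counts, against 5.26% and 9.40% in pre-exposed mice 1 and 5 and 3.99% to 6.53% in naïve mice. Pre-exposed mouse 5 stood apart in another way: its 10 most abundant genes made up 24.7% of its library, a share that was 5.61% to 9.58% in pre-exposed mice 1 to 4 and 6.62% to 10.2% in naïve mice, and its scaling factor by the trimmed mean of M-values (TMM) was 0.68, against 0.999 to 1.11 in all other libraries. Long genes also had lower counts in some libraries. Spearman's rho across genes between gene length and the deviation from the gene's mean was 0.27, -0.54, -0.42, -0.24 and -0.14 in pre-exposed mice 1 to 5, and 0.26 to 0.41 in naïve mice. Of the γδ T cell markers, Trdc, the constant region of the δ chain, lay between 1141 and 3626 CPM in pre-exposed mice and between 1826 and 3873 CPM in naïve mice. The 6 genes tested from this list (Trdc, Cd3e, Cd3d, Cd3g, Cd247 and Cd44) summed to 3591 to 10934 CPM in pre-exposed mice and 5043 to 7990 CPM in naïve mice. Among them 1, the CD3 subunit Cd3d, rose (log2 fold change 1.02, edgeR, adjusted p = 0.0459), while Trdc had a value of -0.18. Only Trdc encodes a part of the γδ receptor chains themselves, so the sum is no measure of γδ T cell content. Transcripts of other cells were also present. The 8 myeloid markers summed to 94.1 to 1677 CPM in pre-exposed mice and 87.0 to 200.2 CPM in naïve mice, and 7 of the 8 rose (edgeR, adjusted p under 0.05). The lowest pre-exposed sum was that of mouse 5, and mouse 1 (1235 CPM) was within the range of mice 2 to 4 (473 to 1677 CPM). The 5 measured erythroid markers summed to 325 to 2040 CPM in pre-exposed mice and 79.6 to 459 CPM in naïve mice, and 4 of the 5 rose, with the highest sum in mouse 5. The B cell markers summed to 80.5 to 180.5 CPM and 103 to 166 CPM, with Pax5 at 0 in all 10 libraries, and 2 of 4 tested rose, Cd79a and Ms4a1. Immunoglobulin transcripts took 4.50%, 6.68%, 1.70%, 0.556% and 0.345% of counts in pre-exposed mice 1 to 5 and 0.0845% to 0.737% in naïve mice. The 6 markers of conventional T cells summed to 1576 to 3289 CPM in pre-exposed mice and 1642 to 1992 CPM in naïve mice (1 rose, Trac), and the 4 NK cell markers, none of which was called, to 1036 to 1974 CPM and 773 to 1483 CPM. The part of these other cells in the members' levels was not tested, and fewer cells of a type and less RNA per cell cannot be told apart in bulk libraries.

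Levels are given as CPM (counts per 1000000 counts of the TMM-scaled library size), and levels of different genes are compared as CPM per kilobase of counted length (RPKM). On that scale Malat1 was far above the other members. In naïve mice its RPKM was 1259 ± 426 (SD, n = 5), and those of the others were 108 ± 22.5 for Gas5, 101 ± 28.2 for Snhg3, 71.3 ± 21.5 for Snhg1, 60.5 ± 8.01 for Neat1, 55.0 ± 12.4 for Snhg5, 36.8 ± 7.99 for Snhg8 and 9.21 ± 2.67 for Snhg12. Gas5 and Snhg3, Snhg1 and Neat1, and Neat1 and Snhg5 were neighbours in this order that differed by less than the larger of their SDs. In pre-exposed mice, where mouse 5 raised most means, the order by median RPKM was Malat1 (412), Gas5 (121), Snhg1 (90.8), Snhg5 (73.5), Snhg3 (63.4), Neat1 (59.1), Snhg8 (37.6) and Snhg12 (19.3). Malat1 was also among the most abundant genes by counts, at rank 2, 5, 17, 36 and 39 in the 5 pre-exposed libraries and at rank 3 to 7 in naïve libraries.

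None of the 8 members was called higher or lower in the 5 pre-exposed mice against the 5 naïve mice (edgeR's quasi-likelihood test, adjusted p under 0.05). In the same test 797 of the 12655 genes were called, 648 higher and 149 lower, which is 6.30% of genes tested. At an unadjusted p under 0.05, 1 member (Snhg12) and 3078 genes passed. DESeq2, and voom with TREAT, with TREAT and quality weights or with eBayes, also called none of the 8, although DESeq2 gave no p-value for Malat1. No member had groups that did not overlap, against 4.93% of all genes tested.

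Malat1 was the member that varied most. It was at 8391, 2242, 2874, 1585 and 51766 CPM in pre-exposed mice 1 to 5, against 10685, 7301, 13031, 7133 and 5805 CPM in naïve mice 1 to 5. Pre-exposed mice 2 to 4 therefore lay below every naïve mouse, mouse 5 above every naïve mouse, and mouse 1 inside the naïve range. The highest pre-exposed level was 32.7 times the lowest, whereas the highest naïve level was 2.24 times the lowest. The SD of log2 CPM was 2.04 in pre-exposed mice, larger than that of 97.9% of tested genes, and 0.48 in naïve mice, larger than that of 67.1%. The log2 fold change by edgeR was 0.60 ± 0.76 (SE, adjusted p = 0.663), and the difference of mean log2 CPM had the other sign, -0.65 (exact permutation test, two-sided, p = 0.563). Without pre-exposed mouse 5 the log2 fold change was -1.21 ± 0.43 (edgeR, adjusted p = 0.0706). The level of mouse 5 did not rest on its scaling factor alone, since Malat1 made up 3.26% of its raw counts. The share was 0.164% to 0.804% in pre-exposed mice 1 to 4 and 0.610% to 1.23% in naïve mice.

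Neat1 varied little. It was at 194.7, 129, 188, 165 and 224 CPM in pre-exposed mice 1 to 5, against 213, 208, 211, 163 and 166 CPM in naïve mice 1 to 5. The groups overlapped, with mouse 2 below and mouse 5 above the naïve range. The place of mouse 5 rests on its scaling factor, since without TMM scaling it was at 140.9 CPM, below the 160.7 to 204 CPM of naïve mice. Its SD of log2 CPM was 0.30 in pre-exposed mice, larger than that of 9.40% of tested genes, and 0.20 in naïve mice (13.6%). The log2 fold change was -0.09 ± 0.21 (SE, edgeR, adjusted p = 0.823).

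**Figure D1:**
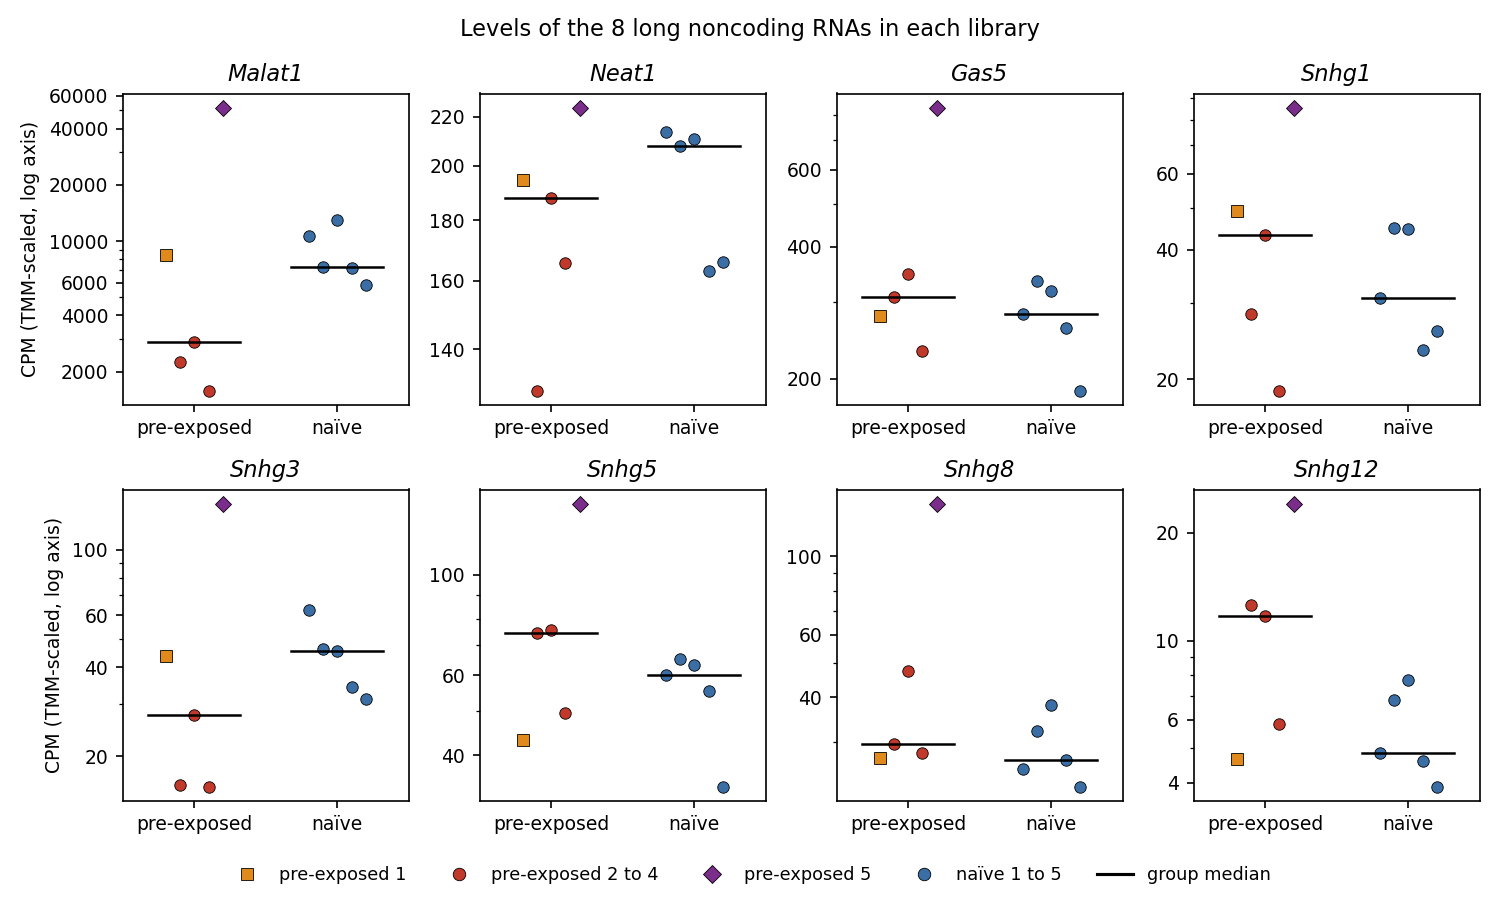
Level of each long noncoding RNA in each library (TMM-scaled CPM, log axis, a separate scale per gene), with pre-exposed mice left of naïve mice and a bar at each group median. Pre-exposed 5 (diamond) is the highest library for all 8 genes, for Neat1 only after TMM scaling, and for Malat1 and Snhg3 pre-exposed 2 to 4 (filled circles at left) are below all 5 naïve libraries.

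Among the hosts, Gas5, named for its accumulation in growth-arrested cells, was the most abundant in CPM. It was at 278, 308, 347, 232 and 831 CPM in pre-exposed mice 1 to 5, against 282, 335, 318, 261 and 188 CPM in naïve mice 1 to 5. Apart from mouse 5 the groups shared nearly the same range. The log2 fold change was 0.53 ± 0.33 (SE, edgeR, adjusted p = 0.338) with all libraries and 0.05 ± 0.21 (adjusted p = 0.892) without mouse 5.

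Snhg1, the host of the U22 snoRNA and others, was at 49.2, 28.4, 43.2, 18.8 and 85.6 CPM in pre-exposed mice 1 to 5, against 30.9, 44.9, 44.6, 23.4 and 25.9 CPM in naïve mice 1 to 5. Pre-exposed mice lay on both sides of the naïve range, with mice 1 and 5 above it and mouse 4 below it. Its log2 fold change was 0.39 ± 0.36 (SE, edgeR, adjusted p = 0.541) and, without mouse 5, 0.00 ± 0.30 (adjusted p = 0.994).

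Snhg3, the host of the U17 snoRNAs (Snora73a and Snora73b), which act in the cleavage of the ribosomal RNA precursor, did not follow the other hosts. It was at 43.7, 16.0, 27.7, 15.8 and 143 CPM in pre-exposed mice 1 to 5, against 62.5, 46.0, 45.5, 34.4 and 31.2 CPM in naïve mice 1 to 5. As with Malat1, mice 2 to 4 were below every naïve mouse, mouse 5 above every naïve mouse and mouse 1 between them. Its log2 fold change was 0.13 ± 0.51 (SE, edgeR, adjusted p = 0.900) and, without mouse 5, -0.81 ± 0.33 (adjusted p = 0.0983). Its SD of log2 CPM in pre-exposed mice, 1.31, was larger than that of 89.5% of tested genes.

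Snhg5, a host of 2 annotated snoRNA genes, was at 43.2, 74.4, 75.6, 49.5 and 143 CPM in pre-exposed mice 1 to 5, against 60.1, 65.3, 63.2, 55.4 and 34.1 CPM in naïve mice 1 to 5. Mice 2, 3 and 5 exceeded the naïve range and none fell under it. The log2 fold change was 0.46 ± 0.32 (SE, edgeR, adjusted p = 0.386) and, without mouse 5, 0.09 ± 0.24 (adjusted p = 0.819).

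Snhg8 was at 27.01, 29.5, 47.6, 27.8 and 141 CPM in pre-exposed mice 1 to 5, against 25.2, 32.2, 38.1, 26.7 and 22.4 CPM in naïve mice 1 to 5. Mice 3 and 5 were above the naïve range and the other 3 inside it. The log2 fold change was 0.89 ± 0.43 (SE, edgeR, unadjusted p = 0.0535, adjusted p = 0.214). It was 0.15 ± 0.24 without mouse 5 (adjusted p = 0.697).

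Snhg12, the least abundant member with 27 to 258 counts per library, had the largest fitted difference. It was at 4.66, 12.6, 11.7, 5.83 and 24.2 CPM in pre-exposed mice 1 to 5, against 4.84, 6.82, 7.74, 4.61 and 3.90 CPM in naïve mice 1 to 5. Mice 2, 3 and 5 were above every naïve mouse, while mice 1 and 4 lay inside the naïve range. The log2 fold change was 1.01 ± 0.43 (SE, edgeR, unadjusted p = 0.0346, adjusted p = 0.167), and the exact permutation test gave p = 0.0952 (two-sided, smallest possible p = 0.00794). The other 7 members had permutation p-values of 0.230 to 0.627.

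The nuclear-retained RNAs were next set against the hosts inside each library, where the scaling cancels. Counts of Malat1 and Neat1 together were 19.3, 5.06, 5.54, 5.01 and 38.0 times those of the 6 hosts in pre-exposed mice 1 to 5, and 23.4, 14.2, 25.6, 18.0 and 19.5 times in naïve mice 1 to 5. The ratio of mice 2 to 4 was under that of all naïve mice, that of mouse 5 over it and that of mouse 1 inside the naïve range. On the log2 scale it averaged 3.33 ± 1.35 in pre-exposed mice and 4.30 ± 0.34 in naïve mice (SD, n = 5 each), a difference of -0.97 that was smaller than the SD among pre-exposed mice. The difference was 0.46 with pre-exposed mice 1 and 5 alone.

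These ratios were almost entirely those of Malat1, and Neat1 behaved differently. There were 43.1, 17.4, 15.3, 9.58 and 231 counts of Malat1 per count of Neat1 in pre-exposed mice 1 to 5, and 35.0 to 61.9 in naïve mice. Neat1 over the 6 hosts was 0.437, 0.276, 0.340, 0.473 and 0.164 in pre-exposed mice 1 to 5, and 0.392 to 0.543 in naïve mice. By this measure mouse 5, the library with the most Malat1, had the least Neat1 for its hosts, and mice 2 and 3 were also below the naïve range.

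The hosts did not keep a fixed proportion to each other either. Per 100 counts of Gas5 there were 15.7, 5.18, 7.98, 6.82 and 17.2 counts of Snhg3 in pre-exposed mice 1 to 5, and 13.2 to 22.2 in naïve mice. Mice 2 to 4 thus lay under the naïve range and mice 1 and 5 inside it. For Snhg12 the values were 1.68, 4.08, 3.37, 2.51 and 2.91 per 100 counts of Gas5 in pre-exposed mice 1 to 5 and 1.72 to 2.43 in naïve mice, so that mice 2 to 5 were above the naïve range. For Snhg5 they were 15.5, 24.1, 21.8, 21.3 and 17.3 in pre-exposed mice 1 to 5 and 18.1 to 21.3 in naïve mice. Mice 1 and 5 were below the naïve range, mice 2 and 3 above it and mouse 4 at its upper end.

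**Figure D2:**
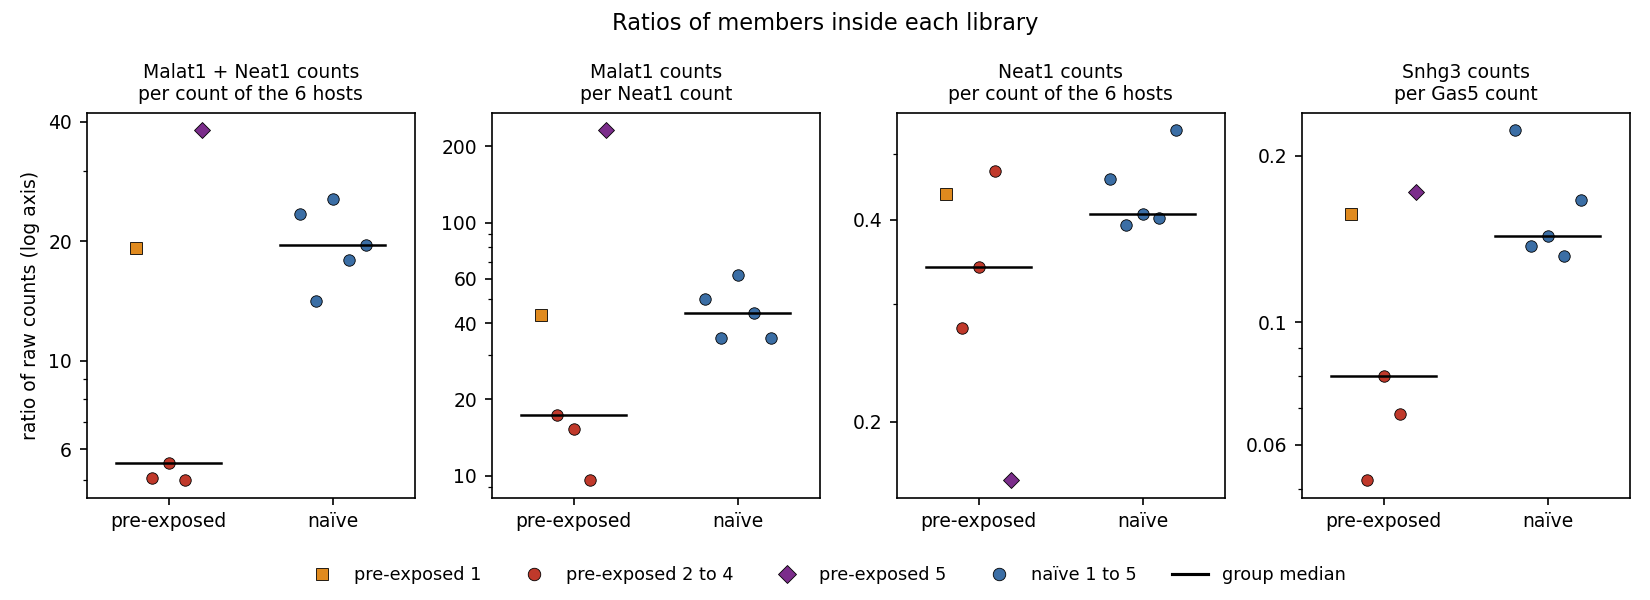
Ratios of raw counts inside each library (log axes), with pre-exposed mice left of naïve mice and bars at the group medians. Malat1 plus Neat1 over the 6 hosts, Malat1 over Neat1 and Snhg3 over Gas5 are low in pre-exposed 2 to 4, and Malat1 over Neat1 reaches 231 in pre-exposed 5, where Neat1 over the hosts is lowest (0.164).

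Since the label descriptions set mice 2 to 4 apart, each part of the pre-exposed group was compared with the 5 naïve mice. In mice 2 to 4, Malat1 fell by 2.02 on the log2 scale (SE 0.31, edgeR, adjusted p = 0.000415) and Snhg3 by 1.23 (SE 0.29, adjusted p = 0.00561). The other 6 members were not called, with log2 fold changes of -0.32 for Neat1, 0.05 for Gas5, -0.24 for Snhg1, 0.20 for Snhg5, 0.20 for Snhg8 and 0.75 for Snhg12. These 2 of 8 lower calls stand beside 14.9% of all genes tested that were called lower in this comparison, and 29.8% were called in either direction. Likewise 2 of 8 members, the same 2, were below all naïve mice in each of mice 2 to 4, against 11.7% of genes tested. When the trend with gene length was also removed, Malat1 (-1.34, adjusted p = 0.0100), Snhg3 (-2.15, adjusted p = 0.000485) and Snhg1 (-1.14, adjusted p = 0.0159) were called lower, with 8.86% of genes tested called lower. Snhg5, Snhg8 and Snhg12 then had log2 fold changes of -0.41, -0.49 and -0.09, and Gas5 one of 0.01, none of them called. That mice 2 to 4 differ from the rest in Malat1 was known before the comparison was made.

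In pre-exposed mice 1 and 5, the libraries whose descriptions have the same form as those of naïve mice, no member was called, and 0.182% of genes tested were. The log2 fold changes were all positive, the largest being 1.84 ± 0.55 for Malat1 (SE, edgeR, unadjusted p = 0.00655, adjusted p = 0.140) and 1.58 ± 0.48 for Snhg8 (unadjusted p = 0.00708, adjusted p = 0.144). For every member mouse 5 was further above the naïve mean of TMM-scaled log2 CPM than mouse 1. For Neat1 that order rests on the scaling, since without it mouse 5 was at 140.9 CPM and mouse 1 at 186.4 CPM. Relative to the naïve mean of log2 CPM, mouse 5 was higher by 2.62 for Malat1, 2.30 for Snhg8 and 1.61 for Gas5, whereas mouse 1 differed by 0.00 for Malat1, -0.07 for Snhg8 and 0.03 for Gas5. Snhg1 was above the naïve mean in both, by 0.59 in mouse 1 and 1.38 in mouse 5.

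**Figure D3:**
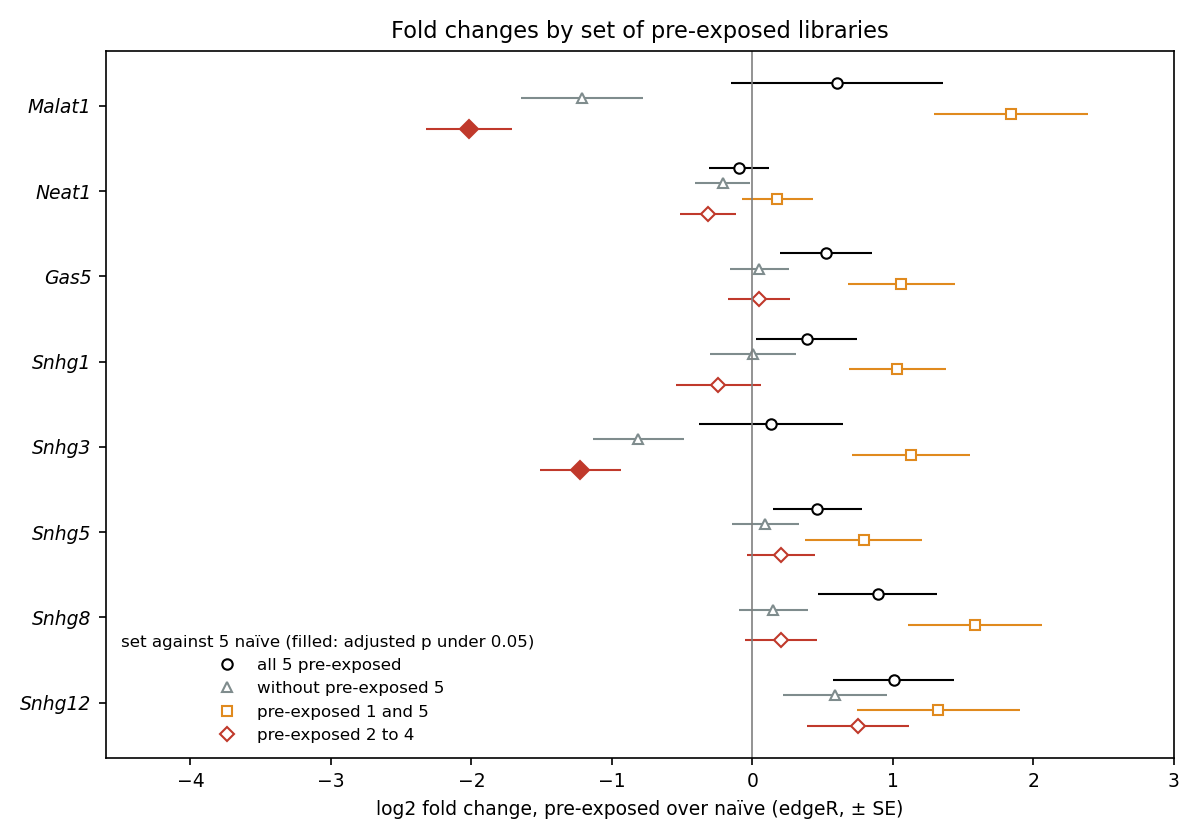
Log2 fold change (edgeR, ± SE) of each long noncoding RNA for all 5 pre-exposed libraries, without pre-exposed 5, for pre-exposed 1 and 5, and for pre-exposed 2 to 4, each set against 5 naïve libraries. The filled symbols (adjusted p under 0.05) are Malat1 (-2.02) and Snhg3 (-1.23) in pre-exposed 2 to 4, while all symbols for pre-exposed 1 and 5 are above 0.

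Malat1 and Snhg3 varied together over the libraries. As a description over the 10 libraries, which share depth and composition effects, Pearson's r of log2 CPM was 0.97 between Malat1 and Snhg3, and 0.94 in the 9 libraries without pre-exposed mouse 5. Malat1 and Neat1 had r = 0.73 (0.69 without mouse 5). Between Malat1 and Gas5 r was 0.67 with mouse 5 and 0.12 without it, so that this likeness rested on 1 library. Among the hosts, Gas5 had r = 0.96 with Snhg8 (0.78 without mouse 5) and r = 0.94 with Snhg5 (0.88), and only 0.71 with Snhg3 (0.21).

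The 3 genes whose log2 CPM was most like that of Malat1 over the 10 libraries, among 10487 other genes with a mean of at least 5 CPM, were the mitochondrially encoded ND2 (r = 0.99), Srgn, the granule proteoglycan serglycin (0.99), and the translation initiation factor Eif3a (0.98). Neat1 was most like Rhoa, a small GTPase (0.94), Dennd4a (0.92) and Caap1 (0.92). Gas5 was most like Cox7b, a subunit of cytochrome c oxidase encoded in the nucleus (0.99), Cox20, which assists assembly of that enzyme (0.99), and Tpt1 (0.98). For Snhg1 they were Ddx43 (0.96), Apoo-ps (0.95) and Lpin2 (0.94). Without pre-exposed mouse 5 these 12 values were between 0.91 and 0.99.

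The other mitochondrially encoded transcripts were examined for the same libraries. With all libraries none of the 13 mitochondrially encoded mRNAs was called, and their median log2 fold change was 0.13, against 0.02 over all genes tested. In mice 2 to 4 all 13 fell, with a median of -2.07, against -0.03 over all genes tested. Those with the smallest p over all libraries were ND3, ND6 and COX1, which fell by 2.07, 1.60 and 2.21 on the log2 scale in mice 2 to 4 (edgeR, adjusted p = 0.000996, 0.000659 and 0.000339). The mitochondrial ribosomal RNAs mt-Rnr1 and mt-Rnr2 fell too, with log2 fold changes of -1.63 and -2.40 (adjusted p = 0.00338 and 0.000425). The mitochondrial share, Malat1 and Snhg3 thus moved in the same libraries, and the part of one in the other was not tested.

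**Figure D4:**
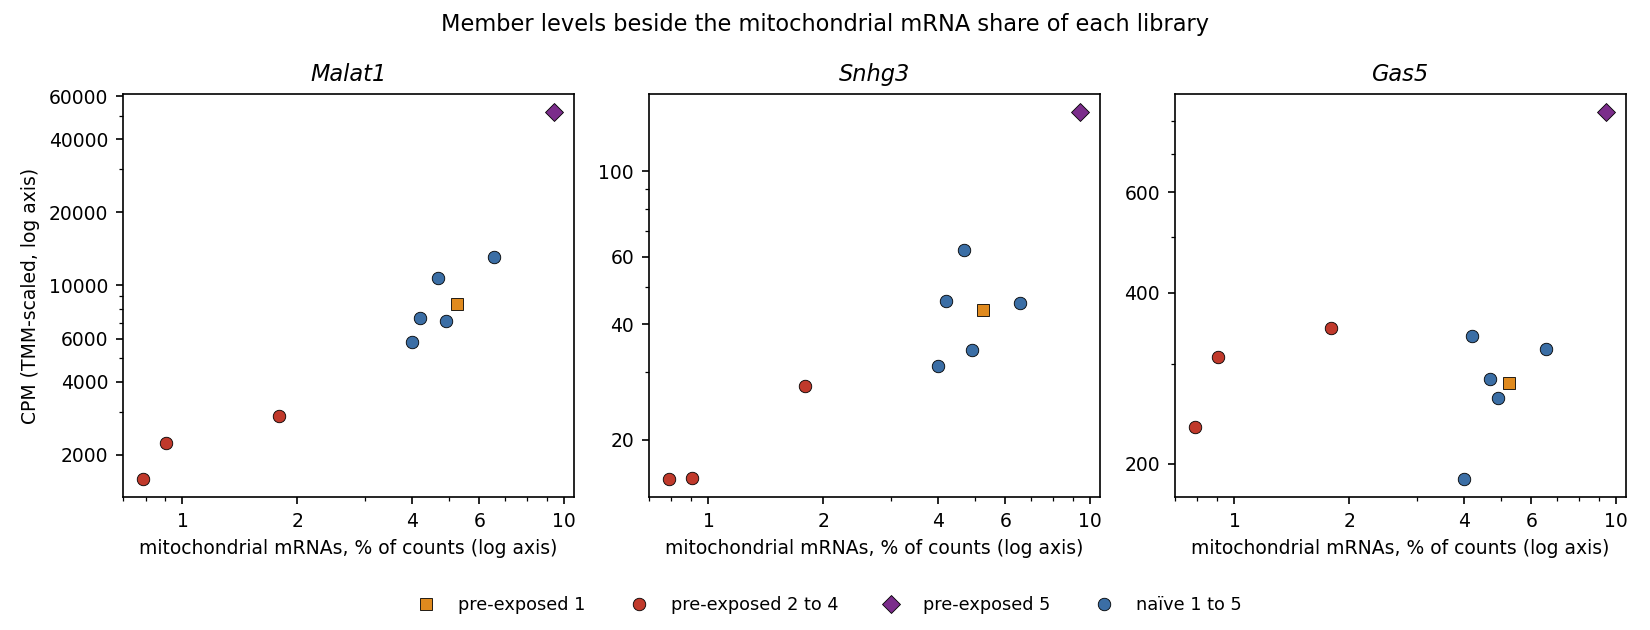
CPM of Malat1, Snhg3 and Gas5 (TMM-scaled, log axis) against the percentage of counts in the 13 mitochondrially encoded mRNAs (log axis), 1 point per library. Pre-exposed 2 to 4 (0.789% to 1.79%) are at the low end for Malat1 and Snhg3 and pre-exposed 5 (9.40%) is at the top. For Gas5 the levels of pre-exposed 2 to 4 (232 to 347 CPM) are close to those of the naïve libraries (188 to 335 CPM), with pre-exposed 3 just above them.

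Other hosts of snoRNAs gave mostly positive values. Of 15 further noncoding hosts, 12 were tested and none was called. Their median log2 fold change was 0.67, with 11 of 12 values above 0. Mouse 5 stood out here too. Its summed level for this list was 452 CPM, whereas no other pre-exposed library exceeded 202 CPM and no naïve library 154 CPM. For Snhg9, mouse 5 had 42.7 CPM and the next highest library, mouse 2, had 6.57 CPM. With mice 2 to 4 alone the median fell to 0.28, and 9 of 12 values were above 0. The smallest p-values were those of Snhg20 (27.2 to 61.2 CPM in pre-exposed mice, 23.6 to 33.7 CPM in naïve mice, log2 fold change 0.71, adjusted p = 0.103), Snhg9 (2.76 to 42.7 CPM and 2.94 to 5.07 CPM, 1.56, adjusted p = 0.153) and Snhg15 (14.3 to 42.9 CPM and 16.3 to 20.8 CPM, 0.68, adjusted p = 0.156). In mice 2 to 4 alone Snhg20 rose by 0.70 and Snhg15 by 0.67 (edgeR, adjusted p = 0.0266 and 0.0365) and no other was called, a count of 2 of 12 beside 14.9% of genes tested called higher. With the length trend removed in mice 2 to 4, in contrast, 10 of 12 values were below 0 and 4 were called lower, beside 8.86% of genes tested.

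Of the snoRNAs carried by the 6 host members, 29 were listed, 9 had a row in the counts and 4 passed the filter, at levels of under 10 CPM. None was called with all libraries. Snora73b, from an intron of Snhg3, was at 1.82 to 4.38 CPM in pre-exposed mice and 0.578 to 1.65 CPM in naïve mice, without overlap (log2 fold change 1.01, edgeR, adjusted p = 0.192), whereas its host was lower in mice 2 to 4. Groups that did not overlap were found for 4.93% of all genes tested, and the relation of these few reads to the host was not tested. Its partner Snora73a had a log2 fold change of 0.10, Snord22 of Snhg1 one of 0.56 and Snord47 of Gas5 one of -0.85, which in mice 2 to 4 was -2.78 (adjusted p = 0.00238). Snora24 in Snhg8 was listed at 0 in all libraries.

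The proteins that bind snoRNAs were the list with a call. Of 8 core proteins of the box C/D and H/ACA particles, Nop10, a small H/ACA subunit, rose (152 to 808 CPM in pre-exposed mice and 132 to 179 CPM in naïve mice, log2 fold change 1.33 ± 0.35 SE, edgeR, adjusted p = 0.0383). The call was lost when any single naïve mouse was left out (adjusted p of 0.0730 to 0.101) and without pre-exposed mouse 2 or 3 (0.114 and 0.0600), as well as with the index pair as a covariate (0.0741) or the replicate number as a block (0.150), and the log2 fold change was 0.43 with the length trend removed. Nhp2, another H/ACA subunit, and Fbl, the methyltransferase fibrillarin of the C/D particles, had log2 fold changes of 0.79 and 1.01 (adjusted p = 0.0540 and 0.0599). The median of the 8 was 0.43. In mice 2 to 4 Nop10, Nhp2, Fbl and Nop56 were called higher (log2 fold changes 1.10, 0.92, 1.12 and 0.62). Their adjusted p were 0.00112, 0.00375, 0.00800 and 0.0190 (edgeR), beside 14.9% of genes tested called higher. Without mouse 5 Nop10, Nhp2 and Fbl were called higher (edgeR, adjusted p = 0.0302, 0.0324 and 0.0389), beside 1160 of the 12655 genes tested. With the length trend removed in mice 2 to 4 they were at 0.32, 0.31 and 0.62, uncalled. Nop56 is named after its value was seen.

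None of 13 paraspeckle proteins was called with all libraries (median log2 fold change 0.09). Matr3, a nuclear matrix RNA-binding protein, and Nono, which binds Neat1 in paraspeckles, had the smallest p (edgeR, log2 fold changes -0.59 and -0.37, adjusted p = 0.244 and 0.297). Of 14 nuclear speckle proteins none was called (median 0.04). Prpf8, a core spliceosome protein, had a value of -0.52, the speckle proteins Srrm1 and Srsf1 had 0.83 and -0.58 (adjusted p = 0.196, 0.212 and 0.293), and in mice 2 to 4 Srsf1 and Prpf8 were called lower, with log2 fold changes of -1.28 and -0.82 (adjusted p = 0.00203 and 0.0111), as was Matr3 of the paraspeckle proteins (-1.08, adjusted p = 0.00793). Of 14 factors of nonsense-mediated decay and the exon junction complex none was called with all libraries (median 0.13), the smallest p being those of the junction complex proteins Magoh, Eif4a3 and Rbm8a (1.13, 0.54 and 0.44, adjusted p = 0.150, 0.204 and 0.321). In mice 2 to 4, 4 of the 14 were called lower, namely Smg1, Upf3b, Upf2 and Smg6 (log2 fold changes -1.79, -1.14, -0.79 and -0.69, adjusted p = 0.000341, 0.00631, 0.0170 and 0.0329), and Eif4a3 was called higher (0.79, adjusted p = 0.00373). Smg1, the kinase that phosphorylates the decay factor UPF1, and the other 3 are named after their values were seen. The calls of the paraspeckle, speckle and decay lists in mice 2 to 4 stand beside 14.9% of genes tested called lower and 14.9% called higher.

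Several other long noncoding RNAs that act in the nucleus or on chromatin were low in mice 2 to 4. Of 10 tested none was called with all libraries (median log2 fold change 0.21). In mice 2 to 4, 4 fell, namely Xist by 1.15, Kcnq1ot1 by 2.06, Tug1 by 1.59 and Firre by 2.07 on the log2 scale (edgeR, adjusted p = 0.00221, 0.000118, 0.000852 and 0.00843), beside 14.9% of genes tested called lower. Xist and Kcnq1ot1, which silences imprinted neighbours, are named after their values were seen. With the length trend also removed 2 were called lower, beside 8.86% of genes tested. Xist, which coats the inactive X chromosome, ranged from 130 to 1487 CPM in pre-exposed mice and from 299 to 414 CPM in naïve mice, and its highest level was again in mouse 5. Tug1 was at 65.5 to 330 CPM in pre-exposed mice and 264 to 378 CPM in naïve mice. Tsix, antisense to Xist, had a log2 fold change of 1.61 (edgeR, adjusted p = 0.129), which cannot be separated from Xist without strand. Tsix was at 755 CPM in pre-exposed mouse 5, at 63.6 to 91.4 CPM in pre-exposed mice 1 to 4 and at 54.3 to 86.0 CPM in naïve mice. In mice 2 to 4 its log2 fold change was -0.10.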

How the data were processed

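RNA of sorted EM γδ T cells was sequenced for 10 mice, 5 pre-exposed and 5 naïve, grouped by the sample labels. The authors aligned read pairs to mm10 with Subread, assigned them to Entrez genes with featureCounts and deposited whole-number counts per gene, not normalized. For both tools the version, and for counting the use of strand, is not given in the sources used here. As library kit the paper's methods give SMART ultra-low input and the labels TruSeq. The series table equalled all 10 files per library.

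Of 27179 genes, 25275 had a RefSeq symbol (GRCm38.p6). filterByExpr kept 13534, and 767 genes without a symbol and 112 immunoglobulin genes were left out, which left 12655. TMM-scaled counts were tested with edgeR 4.0.16 in R 4.3.3 (quasi-likelihood, robust, legacy set to FALSE, no covariate), adjusted by Benjamini and Hochberg at 0.05. Standard errors are the size of the log2 fold change over the square root of F. Log2 CPM used a prior count of 2. DESeq2 1.42.0 and limma 3.58.1 (voom, TREAT at a fold change of 1.5) were alternatives, as were other scalings, filters, subsets of libraries, a replicate block and a length offset (loess, span 0.3, refitted per set of libraries). Subsets used the same 12655 genes. Steps were tested on simulated counts. Libraries within a group differed by more than sampling noise (smallest chi-square per gene 22.6). Columns of other samples numbered 0.

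The members and gene lists were chosen with earlier results of these data known. Named genes are the 8 members, up to 3 tested genes with the smallest p of each list, and the 3 genes most correlated with each of Malat1, Neat1, Gas5 and Snhg1. Promoter sequences are from RefSeq and the Malat1 transcript from GENCODE vM21. Of the members, 7 had a promoter entry. Some named items are not reported here.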

Additional observations from a re-analysis of the deposited data

Results flagged for a closer look

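In groups of 5 libraries, a library was singled out where its gap to the nearest other library exceeded 0.710 of the group's range (Dixon's test at 95%). Chance alone gives this in about 1 in 20 groups if values are normally distributed. Of 30 groups examined 7 met this, and in all 7 pre-exposed mouse 5 was the highest of the pre-exposed mice. These were Malat1 at 51766 CPM (next 8391), Gas5 at 831 CPM (next 347), Snhg3 at 143 CPM (next 43.7), Snhg8 at 141 CPM (next 47.6), 231 counts of Malat1 per count of Neat1 (next 43.1), Malat1 at 3.26% of counts (next 0.804%) and the 10 most abundant genes at 24.7% of counts (next 9.58%). The measures share 1 library and are not independent of each other. The flagged values were CPM, ratios and percentages without a log, and the result depends on that scale. Relative to the naïve mean of log2 CPM, Malat1 was at 2.62, 0.00 and -2.41 in pre-exposed mice 5, 1 and 4, a less isolated place for mouse 5.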

How the results depend on the processing

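No member was called under any setting run except in pre-exposed mice 2 to 4 alone, where 2 were, and with the length trend removed there, where 3 were. The number of genes called over the whole table moved from 797 to 1350 with DESeq2, 2 with voom and TREAT, 287 with quality weights, 96 with eBayes, 358 with the older dispersion method, 40 with the index pair as a covariate, 23 in mice 1 and 5, 3777 in mice 2 to 4, 219 with the length trend removed, 2068 with it removed in mice 2 to 4, and 53 to 1870 when 1 library was left out. With the replicate number as a replicate block 55 genes and no member were called, and the log2 fold changes of Malat1 and Snhg3 were -0.92 and -0.43. The numbers do not pair the mice, since samples with the same number had correlations of deviations between -0.26 and 0.05. Of the 75 tested genes in the 7 other lists, 1 was called, against 2 with all genes kept, 3 with DESeq2, 2 with quality weights, 0 with TREAT, eBayes, the older dispersion method, the replicate block, mice 1 and 5 alone or the length trend removed, 19 in mice 2 to 4, 12 and 2 with the length trend removed in mice 2 to 4 and without mouse 5, and 0 to 6 with 1 library left out. With the index covariate 1 was called as well, a long noncoding RNA and not Nop10.

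Directions turned as follows, as log2 fold changes, the value with all libraries being uncalled in each case. Malat1 was at -0.64 with voom (TREAT and eBayes) and -1.41 with quality weights, and Snhg3 at -0.52 and -0.74. Snhg3 was at -0.15 with total counts. In mice 2 to 4 Malat1 was at -2.02, Snhg3 at -1.23 and Snhg1 at -0.24. Neat1 was at 0.12 with the index covariate, 0.18 in mice 1 and 5 and 0.10 with the length trend removed, where Snhg1, Snhg3 and Snhg5 were at -0.52, -0.97 and -0.13. With the length trend removed in mice 2 to 4, Malat1, Snhg1, Snhg3, Snhg5, Snhg8 and Snhg12 were at -1.34, -1.14, -2.15, -0.41, -0.49 and -0.085. With it removed and mouse 5 left out, Malat1, Gas5, Snhg1, Snhg3, Snhg5, Snhg8 and Snhg12 were at -0.93, -0.015, -0.63, -1.43, -0.44, -0.43 and -0.15. Leaving out 1 library gave -1.21 to 0.94 for Malat1 and -0.81 to 0.40 for Snhg3, both negative only without pre-exposed mouse 5, and no turn for the other 6. The cause was not tested. The log2 ratio of nuclear-retained to host counts differed by -0.97, by 0.46 in mice 1 and 5, and by -1.45 to -0.72 with 1 library left out, the lowest without mouse 5. With Neat1 alone over the hosts it was -0.47. The length removal in mice 2 to 4 and without mouse 5 and the ratio with Neat1 alone were chosen after seeing the data. Depth limits Snhg12 and the snoRNAs most, and intervals here cover the spread between libraries only. The scalings and filters change no within-library ratio.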
